A study of Mus musculus with 8 samples.

Results

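The clustered protocadherin locus of the mouse, on chromosome 18, was examined for DNA methylation in the epithelium of the small intestine. Its members were all merged methylated regions that overlapped positions 37080000 to 38010000 of mm9, an interval of 930 kb, after the peaks of all 8 libraries had been merged wherever they shared at least 1 bp. There were 138 such regions among 475861 in the whole series. In MBD sequencing, the assay used, fragments carrying methylated CpG are captured on a methyl-binding protein domain and the captured fragments are sequenced. A peak is a stretch where such fragments piled up, and it gives a relative amount of densely methylated DNA, not a percent methylation. As cells were pooled, methylation in more cells and denser methylation per cell cannot be told apart.

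The 4 groups had 2 biological replicates each and came from mice of a mixed C57BL/6 and CD1 strain. Epithelial cells of embryos at E12.5 and E14.5 (days of gestation) were sorted as EpCAM-positive cells lacking CD31 and CD45, and the embryos' genotype is not given in the sources used here. Intestinal stem cells (ISC) with high Lgr5-EGFP came, together with absorptive cells of the villus (enterocytes), from Lgr5EGFP-Cre-ERT males at P60. In those adults the reporter is driven by Lgr5, a receptor gene active in crypt stem cells. The enterocyte gate was again EpCAM without CD31 or CD45, which other epithelial cells of the villus also pass. Peak lists hold no expression, so the labelled cell types could not be checked against marker genes.

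Clustered protocadherins are adhesion proteins of the cadherin family, best known from neurons, where each cell uses only a few of the available genes. In the Pcdha and Pcdhg arrays each variable exon has a promoter of its own and is spliced to constant exons shared by the array, while the Pcdhb genes lie between these arrays as separate genes without shared constant exons. In the mouse embryo these promoters acquire DNA methylation through the methyltransferase DNMT3B, and a methylated promoter is usually silent. The gene table at hand, of GRCm38.p6, names 14 Pcdha, 22 Pcdhb and 22 Pcdhg genes on chromosome 18, in that order from Pcdha1 to Pcdhgc5. Slc25a2, a mitochondrial carrier gene, and Taf7, a subunit gene of the basal transcription factor TFIID, are also listed between the first and the last of them. Because that table is of another build than the peaks, regions were not assigned to single genes or exons. Position is given instead as distance from the start of the locus and by 3 segments of 310 kb each. The near-identical copies within the arrays may also have affected how reads were placed, which was not tested.

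Depth ranged from 31438314 to 55442400 tags per library, and the share of tags in peaks from 7.46% in E12.5 replicate 2 to 38.9% in ISC replicate 2. Lists held 84990 to 338262 peaks, the E12.5 lists being the shortest. The fragment size estimated by the peak caller, which bears on how narrow a peak can be, was 57 bp in E14.5 replicate 2, 164 bp in enterocyte replicate 1 and 97 to 126 bp in the other 6 libraries. No batch was named in the labels. Levels are given as tags per 1000000 mapped tags (RPM), summed over the peaks of a region.

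Methylated regions stood along the locus in a few dense runs parted by stretches without a peak. The first 102 kb held a close row of regions, followed by the longest stretches with no peak in any library, of 50.8 kb (37182345 to 37233117) and 52.3 kb (37251857 to 37304150). The next longest stretches were of 32.9 kb and 26.0 kb. Of the 138 regions, 37 had their centre in the first segment, 39 in the middle and 62 in the last. Their median width was 857 bp, 1235 bp and 914 bp in that order.

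**Figure D1:**
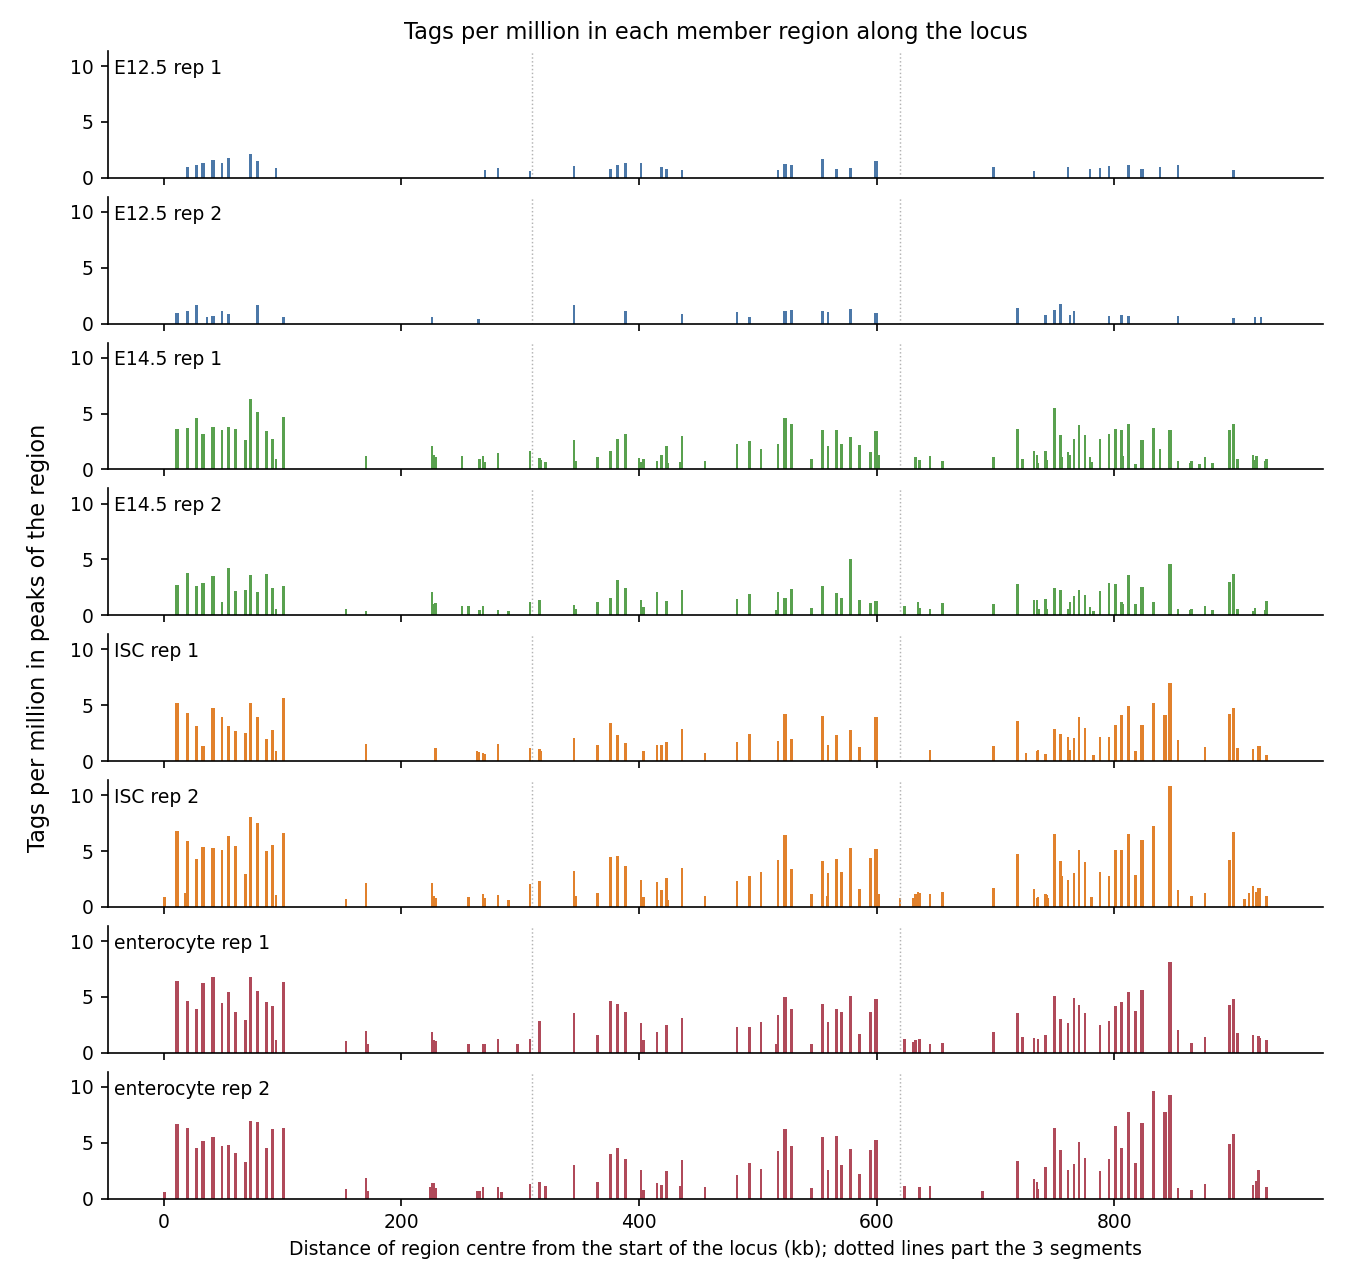
RPM in the peaks of each member region (y axis) against the distance of its centre from the start of the locus in kb (x axis), one panel per library, with dotted lines parting the 3 segments of 310 kb. A row of bars fills the first 102 kb, a stretch with few bars follows, and both E12.5 panels are low and sparse.

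Member regions were wide and recurrent beside the series as a whole. A width of 2000 bp or more was found for 35 members (25.4%) and for 1.91% of all regions. A peak in all 8 libraries was found in 18 members (13.0%), against a background of 5.16% of all regions, and a peak in a single library in 13.8%, against 28.1%. Width and recurrence went together in both sets, which merging builds in partly, as a region spans all of its overlapping peaks. Of the members of 2000 bp or more, 37.1% were called in all 8 libraries, close to the 36.5% of all regions of that width. Of the 72 members under 1000 bp, 0 were called in all 8, where 0.00249% and 3.65% of all regions in the narrower and the wider of both width classes below 1000 bp were.

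**Figure D2:**
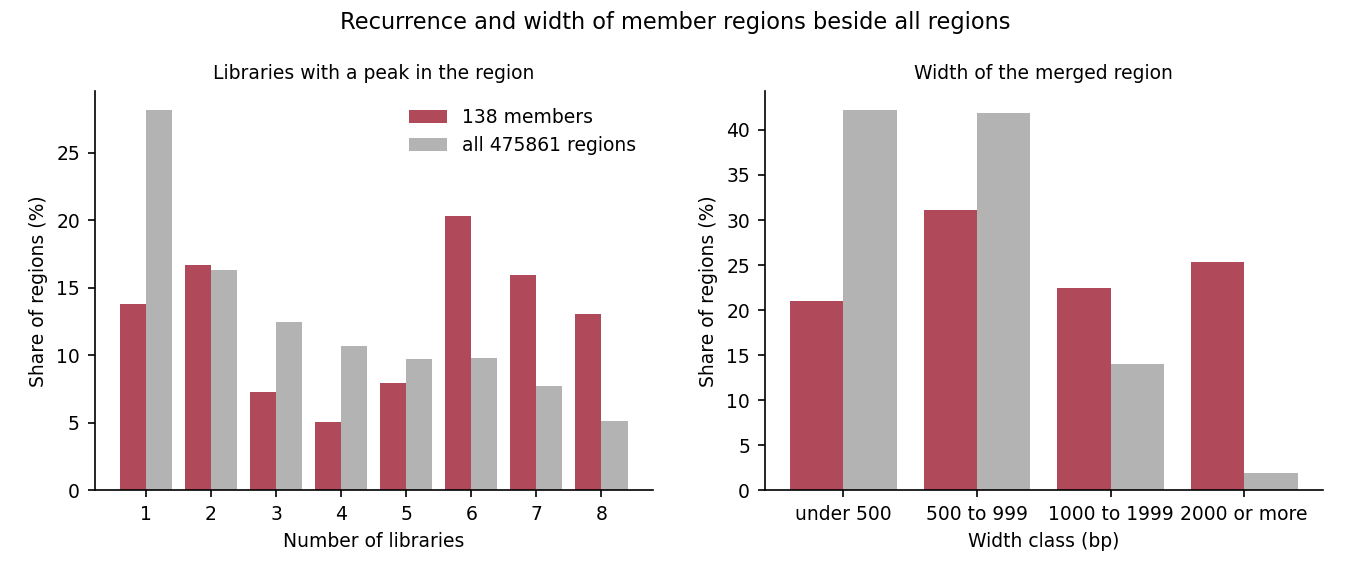
Share of regions in percent (y axes) by the number of libraries with a peak (left) and by width class in bp (right), for the 138 members (red) and all 475861 regions (grey). Members of 2000 bp or more made up 25.4%, against 1.91% of all regions.

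A repeated unit of the locus was a broad region called in most libraries. There were 43 members of at least 1500 bp with a peak in 6 or more libraries, a set chosen after the widths were seen and described without a test. Of these, 13, 14 and 16 lay in the first, middle and last segment. Their median width was 2294 bp and they ranged from 1581 to 3424 bp. The median distance between neighbouring centres was 7.30 kb, and 26 of the 42 distances were 10 kb or less. Spacing was uneven, with quartiles of 5.74 and 21.4 kb and a range of 3.35 to 215 kb. It was not compared with such regions elsewhere. All 43 were called in both E14.5 libraries, in ISC replicate 2 and in both enterocyte libraries, and 42 in ISC replicate 1. Choosing by recurrence nearly fixes this, as 94.2% to 99.2% of all 19822 regions of the series of this width and recurrence were called in each of these 6 libraries. E12.5 replicate 1 had a peak in 26 of them and E12.5 replicate 2 in 24, or 60.5% and 55.8%. Over the 19822 regions, those shares were 66.8% and 58.5%.

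The other 95 members were narrower or less recurrent. They were called in 12 and 11 cases at E12.5, 65 and 53 at E14.5, 39 and 61 in ISC and 47 and 49 in enterocytes. Where called, they held a median of 0.631 to 1.29 RPM in each library, against 1.12 to 5.06 for the 43 broad members. In E14.5 replicate 2, the library with the smallest estimated fragment, 33 of the 43 broad members were made up of 2 or more separate peaks. In enterocyte replicate 1, with the largest, none was. At the same estimate of 102 bp, such members were 16 of the 42 called in ISC replicate 1 and 2 of the 24 called in E12.5 replicate 2. The part of fragment size in this was not tested.

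The locus was compared with the rest of chromosome 18 within each list, so that depth, enrichment and the caller's threshold were shared. Peaks in the locus were wider in all 8 libraries. At E12.5 the median width was 650.5 and 576 bp, against 579 and 504 bp in the rest of the chromosome. At E14.5 it was 605 and 317 bp, against 446 and 270 bp. In ISC it was 684 and 896.5 bp, against 471.5 and 496 bp, and in enterocytes 1507.5 and 1143 bp, against 849 and 608 bp. The excess was small in the E12.5 libraries and largest in ISC replicate 2 and both enterocyte libraries.

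The mean ratio of locus to rest over the 8 libraries was 1.43 for the median width, with a log2 ratio of 0.52 ± 0.31 (SD, n = 8). An exact two-sided sign-flip permutation test gave p = 0.00781, the smallest it can give, and the Benjamini-Hochberg adjusted value over the 4 quantities tested was also 0.00781. Each of the other 3 quantities was likewise higher in the locus in 8 of 8 libraries, with that same p. The mean ratio was 1.13 for peaks per Mb (range 1.01 to 1.38), 1.61 for the percent of bases covered (1.12 to 2.20) and 1.55 for the median RPM per peak (1.12 to 2.35). The test took the log2 ratios of the libraries as independent and, without a difference, symmetric about 0, although they are replicates of 4 groups. It measures consistency between libraries at this single interval, not how unusual the interval is.

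Height, read as the caller's fold and as RPM per kb of peak, differed less from the rest of the chromosome than width did. The caller's fold over local background, the authors' value, had a median of 4.42 to 7.63 in the locus and 4.42 to 7.78 in the rest of the chromosome. With no control, that background came from the same library, and the part of nearby peaks in it was not tested. The locus median was lower than that of the rest in each library except E12.5 replicate 2. The median RPM per kb of peak was higher in the locus in all 6 later libraries, at 2.25 and 2.77 against 2.12 and 2.69 at E14.5, 2.21 and 2.50 against 2.03 and 2.15 in ISC, and 1.8 and 2.19 against 1.5 and 1.8 in enterocytes. At E12.5 it was 1.39 and 1.50, against 1.42 and 1.49. At E12.5 a single peak of 42 and of 37 in the locus reached 1 kb, or 2.38% and 2.70%, against 8.87% and 4.01% in the rest of the chromosome. At E14.5 these shares were 23.8% and 0.662%, against 4.14% and 0.401%. In ISC these shares were 27.3% and 44.6%, against 4.34% and 6.93%. In enterocytes they were 67.8% and 57.9%, against 34.2% and 14.2%.

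**Figure D3:**
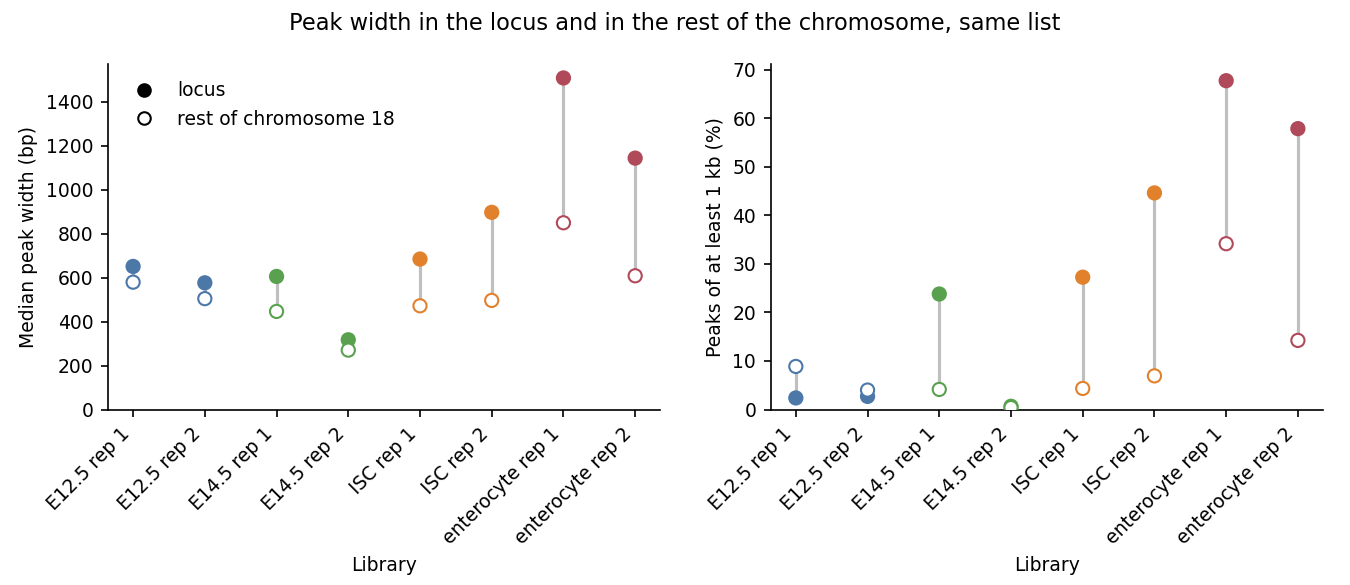
Median peak width in bp (left) and percent of peaks of at least 1 kb (right) in each library (x axis), for the locus (filled) and the rest of chromosome 18 (open), joined by a line. The filled points lie above the open ones in all 8 libraries on the left, while on the right both E12.5 libraries have the filled point below.

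Among windows of the same length tiled over the autosomes, the locus stood higher in adult than in embryonic lists by the bases covered. It ranked 66 of 2647 windows in enterocyte replicate 1 and 245 of 2648 in enterocyte replicate 2. In ISC it ranked 274 and 365 of 2648, at E14.5 706 and 820 of 2649, and at E12.5 1101 of 2647 and 1028 of 2645. These ranks are a description, and no test was made on them.

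The groups were then compared by the level of the whole locus, which addresses how methylation differs between fetal and adult epithelium. Peaks covered 3.12% and 2.39% of the locus in the E12.5 libraries, 10.2% and 5.90% at E14.5, 8.94% and 12.7% in ISC and 15.4% and 13.9% in enterocytes. E12.5 lay below every other library and enterocytes above every other, while E14.5 and ISC overlapped. The RPM in locus peaks were 40.9 and 34.1 at E12.5, 224 and 158 at E14.5, 192 and 311 in ISC and 268 and 301 in enterocytes. On this scale E12.5 lay lowest, ISC overlapped both E14.5 and enterocytes, and E14.5 lay below enterocytes.

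The share of all peak tags that fell in the locus is taken over each library's own tags in peaks, and still varied with list length. It was 0.0415% and 0.0457% at E12.5, 0.0595% and 0.0527% at E14.5, 0.0806% and 0.0800% in ISC and 0.101% and 0.0910% in enterocytes. No 2 groups overlapped, and the order was E12.5, E14.5, ISC and enterocytes. On lists cut to equal length the shares were 0.0431% and 0.0457%, 0.100% and 0.0769%, 0.115% and 0.143%, and 0.139% and 0.153% in that order. There ISC replicate 2 lay above enterocyte replicate 1, so these 2 groups overlapped. Neighbouring groups were not tested on this share, since with 2 libraries on each side the smallest two-sided p of exact permutation is 0.333.

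**Figure D4:**
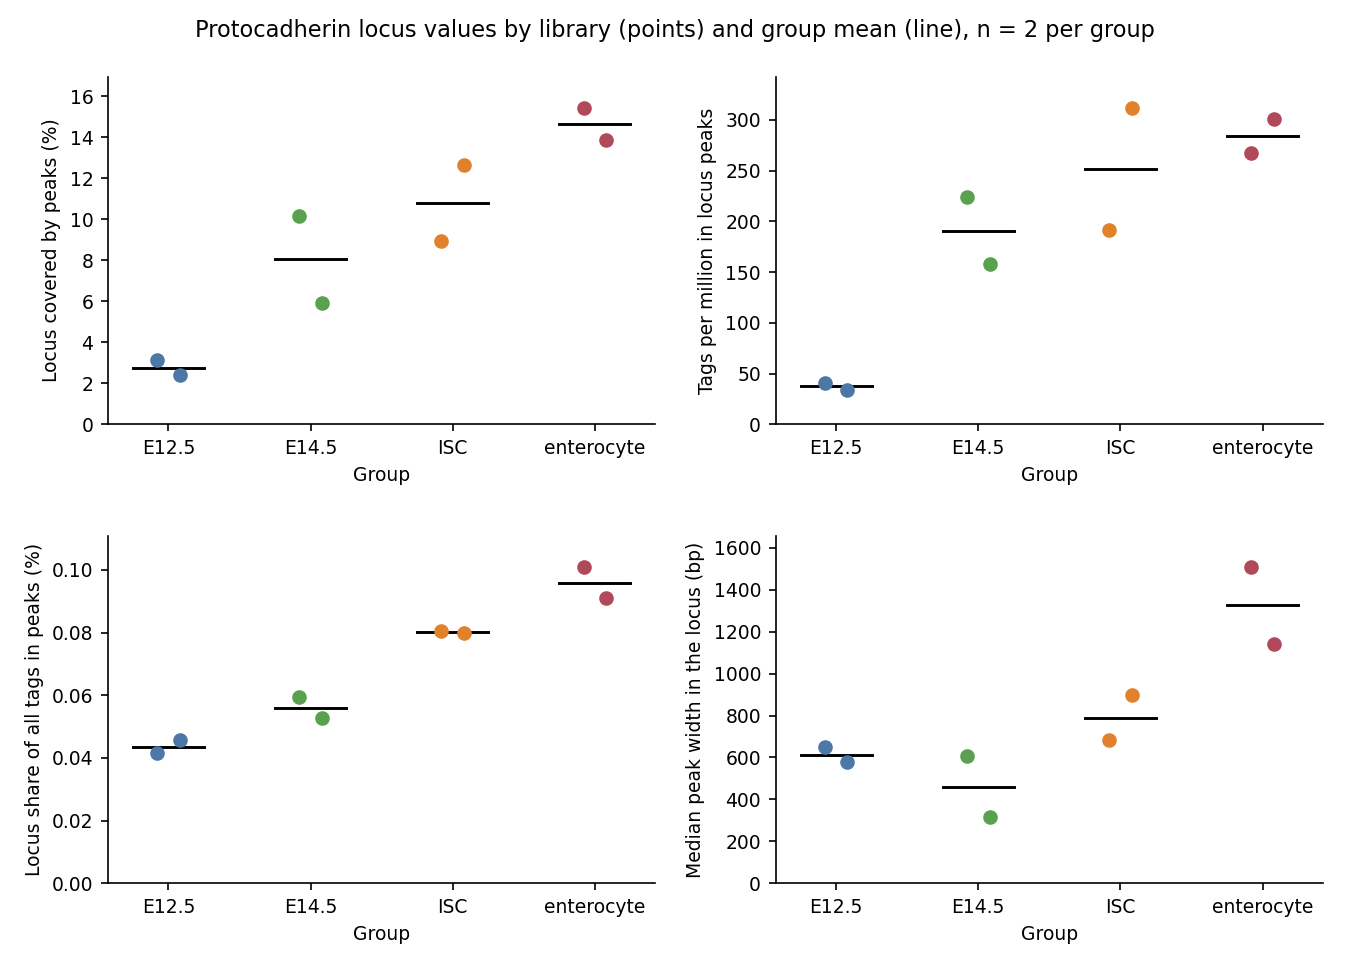
Percent of the locus covered by peaks, RPM in locus peaks, locus share of all tags in peaks, and median peak width in the locus (y axes) for the 4 groups (x axes). Points are the 2 libraries of a group and lines their mean, and only the share of peak tags parts all 4 groups, which it does not on lists of equal length.

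Setting the 4 adult against the 4 embryonic libraries gave a share of peak tags of 0.0881% ± 0.00989 in adults and 0.0499% ± 0.00789 in embryos (SD, n = 4 each). The exact two-sided permutation test gave p = 0.0286, the smallest that 70 splits allow, and an adjusted p of 0.0571 over the 4 quantities (Benjamini-Hochberg), so the difference did not pass 0.05 after adjustment. The median peak width in the locus was 1058 ± 354 bp in adults and 537 ± 150 bp in embryos, with the same exact permutation p of 0.0286 and adjusted p of 0.0571. Coverage was 12.7% ± 2.76 in adults and 5.40% ± 3.53 in embryos, and RPM were 268 ± 54.1 and 114 ± 92.7. Both of these gave an exact permutation p of 0.0571, as E14.5 replicate 1 lay within the adult range.

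The same contrast was made on the ratio of the locus to the rest of chromosome 18, a scale chosen after the values were seen. The p-values on this scale therefore describe how the libraries separated and are no independent support. In all 4 adult libraries the covered share was 1.84 to 2.20 times that of the rest, and in the 4 embryonic libraries 1.12 to 1.47 times. The median width was 1.45 to 1.88 times that of the rest in adults and 1.12 to 1.36 times in embryos. The median RPM per peak were 1.58 to 2.35 times in adults and 1.12 to 1.44 times in embryos. On the full lists the sides did not overlap on any of these 3, and each gave an exact two-sided permutation p of 0.0286, adjusted 0.0381. Peaks per Mb were 1.01 to 1.38 times those of the rest in adults and 1.01 to 1.18 times in embryos, with adjusted p = 0.486 by the same exact test. On lists of equal length the covered share still parted the sides, and so did peaks per Mb. The width and the RPM per peak did not. Peaks per Mb in the locus were then 40.86 and 39.78 at E12.5, 67.74 and 63.44 at E14.5 and 70.97 to 73.12 in adults. The rest of the chromosome held 33.653 to 36.005 per Mb in the 8 libraries. On peaks per Mb, E14.5 thus lay nearer to the adults than to E12.5. The covered share at E12.5 was 2.86% and 2.39%, against 2.44% and 1.88% in the rest. At E14.5 it was 6.69% and 3.27%, against 2.49% and 1.49%. On the same lists the median width was 910 bp against 622 bp in E14.5 replicate 1, and 803 bp against 584.5 bp in ISC replicate 1. The median RPM per peak was 2.31 against 1.50 in the former and 1.88 against 1.30 in the latter. The estimated fragment size was 102 to 164 bp in the adult and 57 to 115 bp in the embryonic libraries, and its part in the width was not tested.

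Presence of peaks was compared between E12.5 and E14.5, E14.5 and ISC, ISC and enterocytes, and all embryonic and adult libraries. Both E12.5 libraries had a peak in 18 members (13.0%, against 7.93% of all regions). Both E14.5 libraries had one in 88 (63.8%, against 43.7%), both ISC libraries in 73 (52.9%, against 31.4%) and both enterocyte libraries in 78 (56.5%, against 27.7%). The E12.5 libraries overlapped little. Of the pair, replicate 1 alone had a peak in 20 members (14.49%, background 12.7%) and replicate 2 alone in 17 (12.32%, background 9.5%). Over all regions, the shared 7.93% lay below both of these backgrounds, so the small overlap was not particular to the locus. In each group the members were called more often than regions of the series as a whole, which are also narrower.

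The pair of E14.5 libraries shared a peak that the E12.5 pair lacked at 40 members, or 29.0%, against a background of 23.9% of all regions. Of these, 22 were called in all 4 adult libraries too (15.9% of members, background 5.49%). A further 22 members had those 6 peaks and 1 at E12.5 (background 6.52%). The opposite was found at 0 members, where the background was 0.276%. Both E14.5 lists were over 3 times as long as both E12.5 lists. On lists cut to equal length, 12 of 94 members had a peak in the E14.5 pair alone (12.8%, against 5.39% of all regions) and 1 in the E12.5 pair alone (1.06%, against 3.58%). Where peaks had to cover 50% of a region, the share of members at E14.5 alone was 10.9%, against 10.2%. On the full lists without E14.5 replicate 1 it was 34.8%, below the 41.0% of all regions, so the excess depended on the setting.

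The highest of the 40, by the lower of both E14.5 values, was also the widest member of the locus, at 37925269 to 37928692 in the last segment (3424 bp). It held 3.50 and 4.59 RPM at E14.5, 7.03 and 10.8 in ISC and 8.14 and 9.30 in enterocytes, and no peak at E12.5. All 4 adult libraries lay above both E14.5 libraries. A region of the first segment at 37164851 to 37167349 held 3.44 and 3.67 RPM at E14.5, 1.97 and 4.99 in ISC and 4.50 and 4.50 in enterocytes. A region near the far end at 37975906 to 37977909 held 3.50 and 3.01 at E14.5, 4.19 and 4.20 in ISC and 4.27 and 4.85 in enterocytes. At the first of these ISC replicate 1 was the lowest of the 6 libraries, while at the second both E14.5 libraries were.

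Few members separated the later groups. Both lists of E14.5 but no ISC list had a peak at 8 members (5.80%, background 6.69%), and the reverse at 2 (1.45%, background 1.91%). These shares were near the background. The 3 highest of the 8 were narrow regions, at 37886996 to 37887510, 37330698 to 37331208 and 37859262 to 37860005, with 0.774 to 1.22 RPM at E14.5. The first lay 181 and 129 bp from the nearest ISC peak, the second 12115 and 5009 bp and the last 2299 and 492 bp. The 2 members gained in ISC were adjacent, at 38000913 to 38001861 and 38001869 to 38002659, close to the end of the locus. The first of this pair held 1.39 and 1.72 RPM in ISC and 1.5 and 2.55 in enterocytes, and was the 1 member called throughout the adults and in no embryonic list (0.725%, background 0.402%). The nearest E14.5 peak to it lay 1128 bp away. The second was called in both ISC libraries and in enterocyte replicate 1.

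Between ISC and enterocytes, 2 members were called in both enterocyte libraries only (1.45%, background 1.28%) and 0 in both ISC libraries only (background 3.85%). The 2 were at 37703059 to 37703965, with 1.2 and 1.12 RPM in enterocytes, and at 37251305 to 37251856, with 0.784 and 0.664. The first of them also had a peak in E14.5 replicate 2. The embryonic lists alone shared a peak at 0 members, where the background was 0.139%.

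Tag counts were compared at the 18 members called in all 8 libraries, with edgeR's quasi-likelihood test fitted on all 24563 regions of the series called in all 8. In the adult minus embryo contrast the fitted log2 fold change was above 0 for all 18 members, with a median of 0.66, while over all regions 50.1% were above 0 and the median was 0.00. With tags scaled by total library tags in place of TMM, the medians were 1.14 and 0.49, so the members still lay 0.65 above. On tags per kb of peak, in limma, they were 0.21 and 0.07.

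At an adjusted p under 0.05 (edgeR, Benjamini-Hochberg over 24563 regions), 2 of the 18 members were higher in adults and 0 lower, against a background of 0.147% and 0.0407%. At an unadjusted p under 0.05, 11 of the 18 passed, against 11.8% of all regions. One of the 2 called, at 37979103 to 37981420, held 0.688 and 0.487 RPM at E12.5, 4.08 and 3.73 at E14.5, 4.78 and 6.68 in ISC and 4.78 and 5.77 in enterocytes. Both E12.5 libraries lay far below the other 6, and E14.5 below the adults. Its log2 fold change was 1.37 ± 0.19 (SE) for adult minus embryo, with an edgeR adjusted p of 0.0221. The other, at 37890334 to 37893328, held 1.12 and 0.685 RPM at E12.5, 4.05 and 3.61 at E14.5, 4.90 and 6.52 in ISC and 5.40 and 7.74 in enterocytes, with a log2 fold change of 1.23 ± 0.20 (SE) and an edgeR adjusted p of 0.0345. Here too the groups fell in the order E12.5, E14.5 and adults without overlap.

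For E14.5 minus E12.5, 1 member rose and 0 fell among the 18, against a background of 0.236% and 0.11%. This was again the region at 37979103 to 37981420, with a log2 fold change of 1.92 ± 0.28 (SE) and an edgeR adjusted p of 0.0402. The median over the 18 was 0.55, and over all regions -0.01. With total tags in place of TMM these medians were 1.41 and 0.81. On tags per kb of peak, in limma and without TMM, they were 0.92 and 0.86, so the members lay little above all regions on that scale. The calls rest on the full set of libraries. Leaving out any single library ended each of these 3 calls, with edgeR adjusted p-values of 0.0514 to 0.208. The log2 fold changes stayed at 1.77 to 2.09 for E14.5 minus E12.5, and at 1.29 to 1.45 and 1.11 to 1.38 for the 2 members in adult minus embryo. Over all 24563 regions, 0 to 2 were called higher at E14.5 in these fits and 0 to 25 higher in adults. Without E14.5 replicate 1, another member was called in the adult minus embryo contrast, at 37601232 to 37604191 (edgeR adjusted p = 0.0495).

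Of the 18, 2 members had a fitted change below 0 for E14.5 minus E12.5, and neither passed the test. The larger of these changes was at a region chosen after its values were seen. The region at 37932618 to 37934066 held 1.18 and 0.721 RPM at E12.5, 0.781 and 0.602 at E14.5, 1.88 and 1.49 in ISC and 2.01 and 0.971 in enterocytes. Its edgeR log2 fold change for E14.5 minus E12.5 was -1.27 ± 0.42 (SE), with an adjusted p of 0.169. The embryonic groups overlapped in RPM, and both E12.5 libraries had longer peaks there, 793 and 520 bp against 356 and 178 bp at E14.5.

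**Figure D5:**
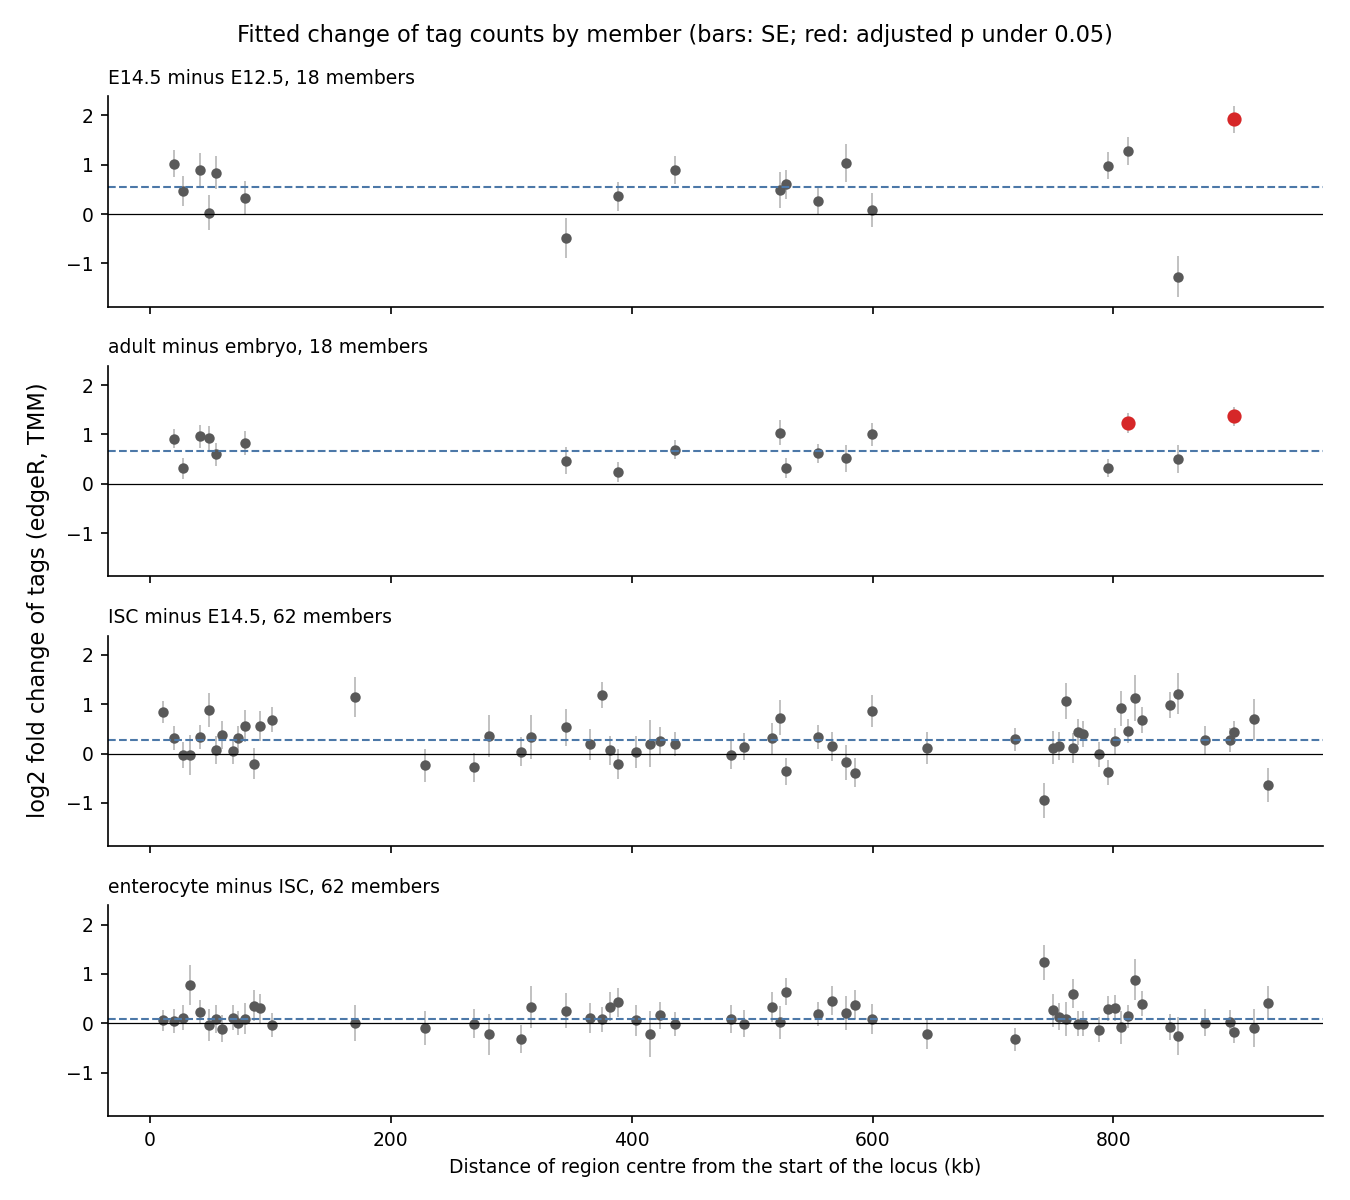
Fitted log2 fold change of tag counts with its SE (y axis) for each tested member against the distance from the start of the locus in kb (x axis), for 4 contrasts. Red points had an edgeR adjusted p under 0.05, the dashed line is the members' median (0.55, 0.66, 0.27 and 0.09 from top to bottom), and red points occur only in the last segment in the upper 2 panels.

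For the later groups, 62 members had a peak in all 6 libraries of E14.5, ISC and enterocytes, or 44.9%, against 17.2% of all regions. At an adjusted p under 0.05 (edgeR, over 81732 regions) 0 of the 62 differed between ISC and E14.5, where the background was 0.00367% higher and 0% lower. At an unadjusted p under 0.05, 13 of them passed (7.32% of all regions did), and DESeq2 called 0. The fitted change was above 0 for 48 of the 62, with a median of 0.27, against 48.6% and -0.01 over all regions. On RPM per kb of peak, in limma and without TMM, the median was -0.12 and 16 of 62 were above 0, against -0.20 and 10.5% over all regions. The sign of the median turned, but the members still lay above all regions. The lowest adjusted p was at 37454495 to 37456901, a region chosen after its values were seen, with 1.62 and 1.58 RPM at E14.5, 3.39 and 4.45 in ISC and 4.66 and 3.96 in enterocytes. Its log2 fold change was 1.18 ± 0.26 (SE), with an edgeR adjusted p of 0.310, and both E14.5 libraries lay below all 4 adult ones.

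Between enterocytes and ISC 0 of the 62 passed in edgeR in either direction, as did 0 of all regions (background 0%). At an unadjusted p under 0.05, 2 passed, where 3.79% of all regions did, and DESeq2 called 0. The median log2 change was 0.09, against 0.00 over all regions, and 42 of 62 were above 0, against 49.8%. On RPM per kb of peak, in limma and without TMM, the median was -0.22 and 2 of 62 were above 0, against -0.33 and 1.16% over all regions. Here too the sign of the median turned while the members still lay above all regions.

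Members called in every library were found in all 3 segments, 6 in the first, 8 in the middle and 4 in the last. In the first segment, the member called in all 8 libraries with the highest mean level, at 37157201 to 37160281, held 1.48 and 1.66 RPM at E12.5, 5.12 and 2.12 at E14.5, 3.92 and 7.47 in ISC and 5.56 and 6.82 in enterocytes. In the middle segment it was at 37601232 to 37604191, with 1.27 and 1.12 at E12.5, 4.60 and 1.55 at E14.5, 4.19 and 6.46 in ISC and 4.98 and 6.18 in enterocytes. At both, E12.5 was lowest, ISC overlapped E14.5 and enterocytes, and E14.5 lay below enterocytes. The next 2 by level in the first segment (37119769 to 37122860 and 37099062 to 37101355) held 0.667 to 1.61 RPM at E12.5 and 3.55 to 6.78 in the 6 later libraries. In the middle segment (37656732 to 37658874 and 37633312 to 37635495) they held 0.905 to 1.70 and 2.58 to 5.49. In the last segment, the remaining one of the highest 3 was at 37874827 to 37876478, with 0.721 to 1.01 at E12.5 and 2.19 to 3.55 later.

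No shift along the locus between adults and embryos passed a test. The first segment held 31.1% ± 0.962 in adults and 32.3% ± 2.88 in embryos, the middle 29.2% ± 2.19 and 33.3% ± 5.04, and the last 39.7% ± 2.53 and 34.4% ± 7.20 (SD, n = 4 each). These differences did not pass an exact two-sided permutation test, with adjusted p-values of 0.600, 0.343 and 0.343. By library, the last segment held 24.4% and 34.1% at E12.5 and 36.7% to 42.8% in the 6 later libraries. The 2 E12.5 libraries were the lowest of the 8, but differed from each other by more than the later 6 did. On lists of equal length this order was lost, with 26.4% and 34.1% at E12.5, 32.8% and 28.1% at E14.5 and 31.9% to 39.6% in adults.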

How the data were processed

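MBD pull-downs of 8 libraries (1 µg DNA each, sheared to 150 to 250 bp, MethylMiner kit, per the labels' protocols) were analysed from the peak list of each library. Build mm9 and the tools Bowtie 1.1.2, SAMtools 1.2 and bcl2fastq 1.8.4 are named in the submitters' processing notes. Per the file headers, MACS 1.4.2 called peaks per library with no control, with 1e-05 as the p cutoff, 200 bp as band width and 10000 bp for regional lambda. The tag counts per peak are deposited as whole numbers, not normalized. The score (a scaled negative log10 of MACS's p-value) and the fold, a ratio to local background, are the authors' values per the file headers.

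Where no peak is listed, the number of tags is unknown, and why a list lacks a peak there was not tested. RPM were scaled by the header's total tags, and a region's value sums its peaks. Segment shares used summit positions. The reference for ratios was the rest of chromosome 18 from the first to the last peak. Members, lists and tests were chosen with earlier results of these data known. The regions named by rule were the 3 highest per segment called everywhere, up to 3 per direction by presence and by edgeR call, the widest members and the longest peak-free stretch. The second widest, at 37111598 to 37114771 (3174 bp), held 1.34 RPM and no peak at E12.5, 3.15 and 2.87 at E14.5, 1.36 and 5.38 in ISC and 6.21 and 5.19 in enterocytes.

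Tag counts were tested with edgeR 4.0.16 (quasi-likelihood, TMM) in R 4.3.3. DESeq2 1.42.0 and limma 3.58.1 were alternatives. Regions lacking a peak in any library of the fit were left out, for that reason. The script was tested on simulated data. Other alternatives were lists of equal length (84990 peaks), the upper 50% of each list by score, peaks covering 50% of a region, at least 20 tags per library, a replicate term, and leaving out each library. No interval on single shares of tags was given, and p-values measure the spread between libraries only.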

Additional observations from a re-analysis of the deposited data

How the results depend on the processing

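Shares over all regions under the same setting stand in brackets. Lists of equal length left 94 members, of which 12 were called at E14.5 and not E12.5 (5.39%), 1 the reverse (3.58%), 1 in ISC and not E14.5 (3.24%), 2 the reverse (2.98%), 1 in ISC and not enterocytes (2.31%), and 0 in adults only (0.638%). The upper 50% of each list left 110 members, of which 1 was called in ISC and not E14.5 (2.16%), 2 the reverse (6.59%), 1 in enterocytes and not ISC (1.53%), 1 the reverse (3.70%), and 0 in adults only (0.469%). Where peaks had to cover 50% of the region, 15 of 138 were called at E14.5 and not E12.5 (10.2%), 12 in ISC and not E14.5 (4.20%), 6 in enterocytes and not ISC (3.18%), and 9 in adults only (1.25%). Taking only E14.5 for the embryos, an alternative chosen after seeing the data, 7 members were embryonic only (4.47%). The cause of these moves was not tested, except that fewer peaks enter the first 2 settings.

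Leaving out each library gave 40 to 57 members called at E14.5 and not E12.5 (23.9% to 41.0%) and 0 to 3 the reverse (0.276% to 2.61%). It gave 2 to 11 in ISC and not E14.5 (1.91% to 8.03%) and 8 to 20 the reverse (6.69% to 18.1%). Counts were 2 to 13 in enterocytes and not ISC (1.28% to 6.90%) and 0 to 14 the reverse (3.85% to 15.2%). In adults only they were 1 to 2 (0.431% to 1.12%), and in embryos only 0 to 1 (0.156% to 0.505%). A lone library then stands for its group, and the shares over all regions moved too. At E14.5 and not E12.5, members lay below all regions without E14.5 replicate 1 (34.8%, against 41.0%). They were near them without E14.5 replicate 2 (40.6%, against 39.7%). Members lay above all regions without E12.5 replicate 1 (41.3%, against 31.4%) and without E12.5 replicate 2 (38.4%, against 29.4%). Adult minus embryo differences ranged from 6.32 to 8.91 percentage points of coverage, 126.8 to 190.2 RPM, 0.0340 to 0.0414 percentage points of peak tags and 370.7 to 645.2 bp of width, all 4 positive. Without E14.5 replicate 1 the adjusted p of 3 of these was under 0.05. The 4 ratios to chromosome 18 kept their direction and call under every alternative run. The share of the first segment moved from -1.92 to 0.15 points and changed sign without passing the test.

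For tag counts, total tags in place of TMM gave 14 of 18 members higher at E14.5 than E12.5 (36.2%) and 14 higher in adults (14.3%), while moving the median of all regions by 0.81 and 0.49 (log2). DESeq2 gave 2 (0.924%) and 6 (0.786%), limma per kb of peak 18 (99.4%) and 0 (0.00407%), and fits without 1 library 0 and 0 to 1. A replicate block gave 0 (0%) and 1 (0.0651%). Correlations of the deviations of same-numbered libraries were -0.02 to 0.07, which cannot settle whether such libraries share an animal. Over the 24563 regions the count higher at E14.5 went from 58 to 0 under the block and to 227 in DESeq2. A replicate block within the exact permutations changed no call. The E12.5 libraries were the deepest and had the lowest shares of tags in peaks, 9.84% and 7.46%. Why these shares were low was not tested.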

Other observations

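At 2 broad neighbouring regions of the last segment, calls differed between replicates. The region at 37911270 to 37914201 held 9.63 RPM in enterocyte replicate 2 and 7.28 in ISC replicate 2, yet enterocyte replicate 1 had no peak there and its nearest peak lay 6527 bp away. The next broad region, at 37921237 to 37924167 (2931 bp), held 7.77 RPM in enterocyte replicate 2 and 4.10 in ISC replicate 1 and had no peak in the other 6 libraries, of which ISC replicate 2 had its nearest peak 1101 bp away. Where called, the caller's fold was 2.83 to 4.83 at the first and 2.89 to 3.57 at the second, each value below its own library's median in the locus, the lowest of which was 4.42. Why single lists lack these peaks was not tested. Both regions were chosen after their values were seen.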
